A study of Mus musculus with 18 samples.

Results

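The 9 genes described here make, carry and break down the monoamine transmitters: Th, Ddc, Tph2 and Gch1 act in synthesis, Slc6a3, Slc6a4 and Slc18a2 in transport, and Maoa and Maob in breakdown. They were chosen by name, as every probe set whose platform symbol was 1 of the 9, which gave 12 probe sets for 9 of the 18193 genes with a probe set naming 1 gene. For each gene the probe set with the highest mean over all arrays led. Ddc, Gch1 and Maoa had a second probe set each.

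The samples were whole brains of 8-week-old C57BL/6 mice, measured on 18 Affymetrix arrays. Wild type C57BL/6 mice were set beside ERalphaKO and ERbetaKO mice of that background, the names standing for loss of estrogen receptor alpha and beta. Each genotype had 3 female and 3 male arrays, and no treatment was named. The sources used here do not give the knockout alleles, and they do not say that the 3 arrays of a group were separate animals, so p-values measure only the spread between these samples. Depth does not apply to arrays; their number limits the precision.

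Genotype names below are those of the labels, and every direction rests on them. The Esr2 probe set ran against its label, at 271 ± 98.0 (mean signal ± SD, n = 6) on the ERbetaKO-labelled arrays and 28.7 ± 11.4 (n = 6) on the wild type arrays. Esr1 read 129 ± 21.6 on the ERalphaKO-labelled and 143 ± 35.9 on the wild type arrays (n = 6 each), and the ranges overlapped. Whether either probe set lies in the deleted part of its gene was not established. The arrays also differed in tissue and RNA. Pcp2, a Purkinje cell gene of the cerebellum, was under 500 signal units on 7 of the 18 arrays and reached 500 on 4 of 6 wild type, 4 of 6 ERalphaKO and 3 of 6 ERbetaKO arrays. The ratio of the 3-prime to the 5-prime Actb control probe sets, a reading of RNA integrity, was highest on the ERbetaKO-labelled arrays, at 1.48 ± 0.18, beside 1.28 ± 0.08 for ERalphaKO and 1.20 ± 0.02 for wild type (n = 6 each).

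Dopamine and noradrenaline are made from tyrosine, which tyrosine hydroxylase (Th) converts to L-DOPA in the rate-limiting step. Serotonin is made from tryptophan, which tryptophan hydroxylase (Tph2 in the brain) converts in the matching step. Aromatic L-amino acid decarboxylase (Ddc) completes both routes, and Gch1 makes the first intermediate of their cofactor tetrahydrobiopterin. In the brain these genes are used by small groups of neurons, among them groups in the midbrain and hindbrain. Th is also used by interneurons of the olfactory bulb, and these are not the only sites. In whole brain RNA fewer such cells and less RNA per cell cannot be told apart.

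Upstream sequence is shown for the 3 genes on which the results below turn: Th, which was far from the others on 1 array, and Ddc and Slc18a2, which moved together. Each run is the 250 bases before a RefSeq gene start in GRCm38.p6, in the direction of transcription, with motif matches in capitals. Of the 9 genes, 8 had an entry (Maob is named only), and Ddc had 2 starts. The window of Th (chr7:142899996-142900245, minus strand) held the cyclic AMP response element letters TGACGTCA at 45 to 38 bases before the start, an AP-1 match (TGANTCA) and a GC box (GGGCGG). The second window of Ddc (chr11:11898145-11898394, minus strand), the one printed, held an AP-1 match and, on the other strand, the AAAGGTCA letters bound by Nr4a2-type receptors. Its other window (chr11:11890409-11890658) held 0 matches to any motif searched. Which of the 2 starts is used in brain was not established, so the printed window may not be the one that matters here. The window of Slc18a2 (chr19:59260628-59260877, plus strand) held 2 GC boxes.
Th: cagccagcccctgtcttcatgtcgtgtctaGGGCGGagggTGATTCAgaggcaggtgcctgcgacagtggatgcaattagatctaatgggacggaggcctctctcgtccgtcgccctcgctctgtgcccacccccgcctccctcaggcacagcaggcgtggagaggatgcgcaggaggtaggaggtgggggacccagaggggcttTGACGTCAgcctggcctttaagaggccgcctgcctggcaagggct
Ddc: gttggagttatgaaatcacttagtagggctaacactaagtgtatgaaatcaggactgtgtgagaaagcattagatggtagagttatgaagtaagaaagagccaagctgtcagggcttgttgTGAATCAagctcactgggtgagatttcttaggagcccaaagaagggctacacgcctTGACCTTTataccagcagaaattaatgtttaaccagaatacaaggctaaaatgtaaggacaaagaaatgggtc
Slc18a2: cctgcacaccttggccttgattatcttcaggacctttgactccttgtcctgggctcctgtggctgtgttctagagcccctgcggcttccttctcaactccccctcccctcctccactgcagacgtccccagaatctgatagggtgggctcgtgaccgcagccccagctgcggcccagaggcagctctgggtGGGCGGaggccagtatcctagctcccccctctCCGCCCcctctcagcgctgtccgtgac

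Both strands were searched, and none of the motifs overlapped another match in these 3 windows. Among all 32851 upstream windows of this length, TGACGTCA was in 1.55%, TGANTCA in 6.75%, AAAGGTCA in 1.34% and GGGCGG in 32.7%. The full estrogen response element (GGTCA, any 3 bases, TGACC) was in 0.0639% of all windows and in 0 of the 9 windows of these genes. A match is a description of letters, not a binding site, and the lack of one says nothing about the receptor.

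**Figure D1:**
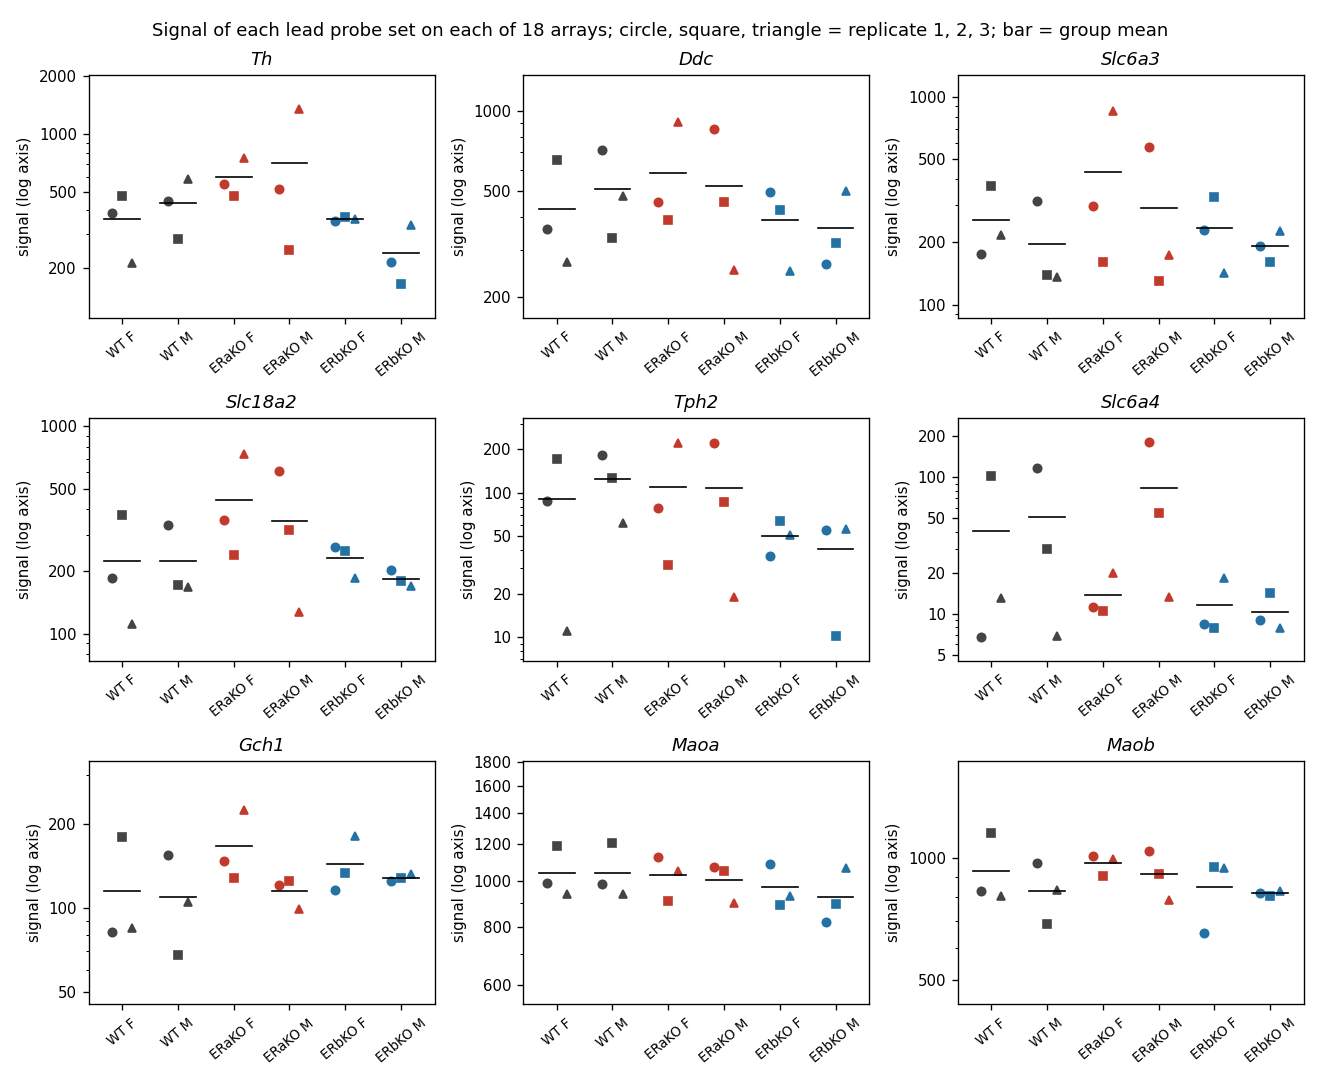
Signal of the lead probe set of each of the 9 genes on each of 18 arrays (vertical log axis, signal units as deposited, each panel with its own range) for 6 groups on the horizontal axis: wild type (WT), ERalphaKO (ERaKO) and ERbetaKO (ERbKO) females (F) and males (M), 3 arrays each, the bar marking the group mean. Th reached 1360.4 on 1 ERalphaKO-labelled male array, and Maoa and Maob stayed within narrow ranges.

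Th, the rate-limiting enzyme of the catecholamines, differed most between the knockouts on the log scale used here. Wild type females read 388, 477 and 213 and wild type males 449.7, 283 and 586 (signal units, replicates 1 to 3 in each group). The ERalphaKO-labelled females read 550.0, 478 and 755 and the males 517, 249.7 and 1360.4. The ERbetaKO-labelled females read 352, 368 and 362 and the males 215, 165 and 337. All 6 ERbetaKO-labelled arrays were below 5 of the 6 ERalphaKO-labelled arrays, and male replicate 2 of the latter lay inside the ERbetaKO range.

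By group mean the order of Th was ERalphaKO males (709 ± 580), ERalphaKO females (595 ± 144), wild type males (440 ± 151), ERbetaKO females (361 ± 8.15), wild type females (359.6 ± 135) and ERbetaKO males (239 ± 88.3), each mean signal ± SD with n = 3. Neighbours in this order differed by less than the larger SD of the pair, except for ERalphaKO females and wild type males, whose means were further apart than either SD while their values overlapped.

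On the log2(signal + 63.6) scale, Th was 0.86 ± 0.29 (SE) higher on ERalphaKO-labelled than on ERbetaKO-labelled arrays, with a 95% interval of 0.26 to 1.47, or 1.82-fold with an interval of 1.19 to 2.77. In limma's test over 13072 genes the adjusted p was 0.0516 (unadjusted p = 0.00809), just short of the threshold of 0.05; the exact permutation test over the 6 against 6 arrays gave a two-sided unadjusted p of 0.0238. The added constant understates the change of low genes. Against wild type the difference was 0.53 ± 0.29 for ERalphaKO (adjusted p = 0.281) and -0.33 ± 0.29 for ERbetaKO (adjusted p = 0.497). Without ERalphaKO male replicate 3 these values became 0.57 between the knockouts (adjusted p = 0.0819) and 0.24 for ERalphaKO against wild type (adjusted p = 0.552). With a constant of 1 in place of 63.6, the difference of Th was 0.99 (adjusted p = 0.0520) and that of the dim gene Slc6a4 was larger, at 1.27 (adjusted p = 0.259). Th passed the threshold in 8 of 31 alternative settings, and with the Actb ratio added to the fit the difference between the knockouts was 0.64 with an adjusted p of 0.338.

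Ddc, the decarboxylase shared by the dopamine and serotonin routes, ranged from 271 to 713 in wild type (median 419), from 252 to 911 for ERalphaKO (median 454) and from 250.2 to 498 for ERbetaKO arrays (median 371). The 3 genotypes overlapped. The difference between the knockouts was 0.42 ± 0.28 with a 95% interval of -0.17 to 1.01 (limma, adjusted p = 0.317). The second probe set of Ddc, with a mean signal of 79.2, did not follow the first over the 18 arrays (r = -0.07), and its difference between the knockouts was -0.52 ± 0.18 (limma without the filter, adjusted p = 0.0782). The 2 probe sets therefore disagreed in sign, and the statements on Ddc here are those of the brighter one.

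Tph2, the enzyme that commits tryptophan to serotonin, was dim on this array. It ranged from 11.1 to 183 in wild type (median 107), from 18.9 to 219 for ERalphaKO (median 82.1) and from 10.2 to 63.5 for ERbetaKO arrays (median 53.1). Every ERbetaKO-labelled value lay below 4 of the 6 ERalphaKO-labelled values, but the low ends overlapped. The difference from wild type was -0.56 ± 0.33 for ERbetaKO (95% interval -1.26 to 0.15, adjusted p = 0.355) and -0.04 ± 0.33 for ERalphaKO, both from limma without the filter on low signals. Tph2 was under the added constant of 63.6 on 10 of the 18 arrays, where the log scale compresses its differences.

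Gch1, the first enzyme of cofactor synthesis, ranged from 68.0 to 179.8 in wild type (median 95.0), from 98.9 to 224 for ERalphaKO (median 126) and from 117 to 182 for ERbetaKO arrays (median 131). It was the only 1 of the 9 genes with a mean above wild type on the ERbetaKO-labelled arrays, by 0.21 ± 0.16 (limma without the filter, adjusted p = 0.469). The knockouts differed from each other by 0.02 ± 0.16, with a 95% interval of -0.32 to 0.35. Its second probe set followed the first with r = 0.52 over 18 arrays, but had the other sign for ERbetaKO against wild type. There it gave -0.17 ± 0.15 (limma over all probe sets, adjusted p = 0.586), so the 2 probe sets disagreed.

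Slc18a2, the transporter that loads all monoamines into vesicles, ranged from 111 to 376 in wild type (median 178), from 127 to 733 for ERalphaKO (median 334) and from 170.2 to 261 for ERbetaKO arrays (median 194). The ERalphaKO-labelled arrays thus held 4 values above all ERbetaKO-labelled ones and 1 below them. The difference was 0.61 ± 0.30 between the knockouts (95% interval -0.02 to 1.24, adjusted p = 0.166) and 0.59 ± 0.30 for ERalphaKO against wild type (adjusted p = 0.239) in limma's test. Without ERalphaKO male replicate 3, the array on which Th was highest, the difference between the knockouts became 0.84 with an adjusted p of 0.0415, and Slc18a2 passed where Th did not.

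Slc6a3, the dopamine reuptake transporter, ranged from 136 to 371 in wild type (median 196), from 130.0 to 847 for ERalphaKO (median 237) and from 142 to 331 for ERbetaKO arrays (median 208). Its values on ERalphaKO female replicate 3 (847) and ERalphaKO male replicate 1 (570) stood above the other 16 arrays. The knockouts differed by 0.41 ± 0.33 (limma, adjusted p = 0.417). Slc6a4, the serotonin reuptake transporter, was at a signal of 20 or less on 13 of 18 arrays. It ranged from 6.76 to 117 in wild type, 10.4 to 182 for ERalphaKO and 7.81 to 18.4 for ERbetaKO arrays, and the knockouts differed by 0.43 ± 0.27 (limma without the filter, adjusted p = 0.308).

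The monoamine oxidases, which break the transmitters down at the mitochondrial surface, were the steadiest of the 9. Maoa ranged from 938 to 1205 in wild type, 900.1 to 1125 for ERalphaKO and 819 to 1090.5 for ERbetaKO arrays, with medians of 991, 1053 and 912. Maob ranged from 687 to 1157, from 788 to 1044 and from 654 to 948 in the same order, with medians of 832, 955 and 826. Both genes overlapped across all genotypes. Their highest and lowest arrays were 1.47-fold apart for Maoa and 1.77-fold for Maob, against 8.24-fold for Th and 6.62-fold for Slc18a2.

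**Figure D2:**
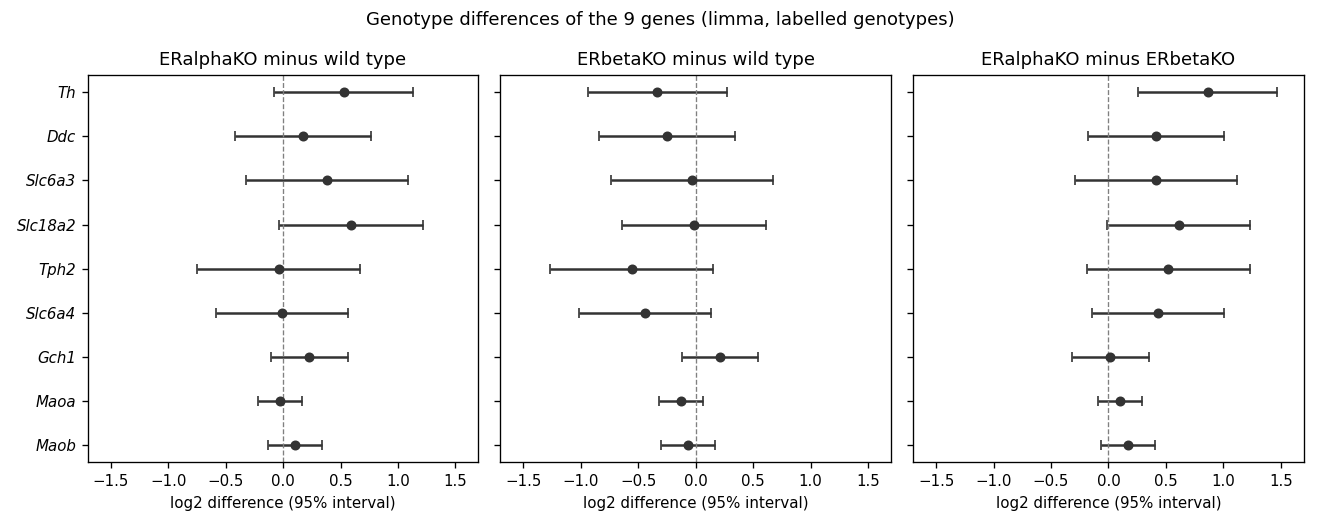
Difference in log2(signal + 63.6) for each of the 9 genes (vertical axis) with its 95% interval from limma, for ERalphaKO minus wild type, ERbetaKO minus wild type and ERalphaKO minus ERbetaKO (n = 6 arrays a genotype). All 9 points of the last panel lie at or above 0, from 0.02 for Gch1 to 0.86 for Th, and the interval of Th alone excludes 0.

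None of the 9 genes passed an adjusted p of 0.05 in limma's test in any comparison. Of all 13072 genes that passed the filter on low signals, 6.70% were called for ERalphaKO against wild type, 7.50% for ERbetaKO against wild type and 15.4% between the knockouts. Tph2, Slc6a4 and Gch1 fell under that filter and were read from the fit over 18193 genes, where 3.64%, 4.71% and 11.1% were called. At an unadjusted p under 0.05 the count of the 9 was 0, 0 and 1 (Th), where 23.3%, 25.4% and 32.1% of all filtered genes were at or past that level. Without the filter 3583, 3904 and 5247 of 18193 genes were. The 9 genes are few and several moved together, so these counts do not set them apart from genes in general. Groups that did not overlap were found for 0 of the 9 genes in each comparison, against 4.65%, 4.06% and 5.85% of all filtered genes in the same order.

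In direction, 6 of the 9 means were above wild type in ERalphaKO-labelled arrays and 1 of 9 in ERbetaKO, the sign of Slc6a4 in ERalphaKO turning under quantile and common-median scaling. Between the knockouts 9 of 9 were higher in ERalphaKO, against 6100 of 13072 genes, and Gch1 turned below 0 in 4 of 18 fits without 1 array. These counts are of lead probe sets. The second probe sets of Ddc, Gch1 and Maoa had the other sign against wild type. They gave -0.27, -0.003 and 0.04 for ERalphaKO and 0.25, -0.17 and 0.03 for ERbetaKO. Between the knockouts that of Ddc was -0.52, and those of Gch1 (0.16) and Maoa (0.01) kept the sign. The comparisons share arrays and several of the genes moved together, so 9 of 9 does not stand for 9 separate directions. The median difference of the 9 genes was 0.17, -0.13 and 0.42 for the 3 comparisons, beside -0.03, 0.01 and -0.02 over all filtered genes. Scaling the arrays to a common median moved the median of all genes between the knockouts to 0.09 and for ERbetaKO against wild type to -0.12, and there Th differed between the knockouts by 0.96. With that scaling the calls between the knockouts split into 1868 higher and 558 lower, against 819 higher and 1191 lower as deposited, so directions near 0 depend on the scaling.

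Sex had no called effect on these genes. Females and males (9 arrays each) differed by between -0.29 (Slc6a4) and 0.31 (Slc6a3), with a smallest adjusted p of 0.958, where 0.0306% of filtered and 0.0330% of unfiltered genes were called. The change of a genotype difference with sex was called for 0 of the 9 genes by limma, and for 0 at an unadjusted p under 0.05, a level that 5.15% of filtered genes passed for ERalphaKO and 3.38% for ERbetaKO. Among all genes, adjusted calls were 0% of filtered and 0.00550% of unfiltered genes for ERalphaKO, and 0% in both sets for ERbetaKO. For Th the difference from wild type was 0.67 in ERalphaKO females and 0.39 in males, and 0.06 in ERbetaKO females and -0.73 in males (SE 0.40 each).

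The synthesis and transport genes other than Gch1 varied widely between arrays of the same group. The pooled within-group SD on the log2 scale was 0.57 for Th, 0.55 for Ddc, 0.66 for Slc6a3, 0.58 for Slc18a2, 0.65 for Tph2 and 0.53 for Slc6a4, which lie between the 97.5th and 98.9th percentile of the filtered genes, whose median was 0.18. The SD of Gch1 was 0.28 (82.1st percentile), that of Maob 0.20 (59.8th) and that of Maoa 0.16 (38.3rd). For Ddc, Slc6a3, Tph2 and Slc6a4 this SD was larger than the difference between the knockouts, and for Th and Slc18a2 it was smaller.

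That spread was shared. ERalphaKO female replicate 3 was the highest of 18 arrays for Ddc, Slc6a3, Slc18a2 and Gch1, and ERalphaKO male replicate 1 was the highest for Tph2 and Slc6a4. For Ddc and Slc18a2 the correlation over the 18 arrays was r = 0.86 and rho = 0.67 (permutation test, two-sided, p = 1e-05 for r, the smallest that 100000 permutations can give; adjusted p = 0.00036 over 36 pairs), and r = 0.74 without the 2 arrays furthest out in Ddc. After the 6 group means were subtracted it was 0.90. For Slc18a2 and Tph2, which serotonin neurons use together, r was 0.80 over arrays (adjusted p = 0.00101 by permutation) and 0.92 within groups.

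Across the 10 pairs of Ddc, Slc6a3, Slc18a2, Tph2 and Slc6a4, r ran from 0.44 to 0.86, and 9 of the 10 had an adjusted permutation p of r under 0.05, but 5 of the 10 had one of rho. The pairs short of it by rho were Slc6a3 with Tph2 (adjusted permutation p = 0.129) and the 4 pairs of Slc6a4 (0.105 to 0.461), which is dim. Of all 36 pairs 19 passed by r and 12 by rho. The relation was not even across the arrays. On the 11 arrays with a Pcp2 signal of 500 or more, r ran from 0.68 to 0.90 over the 6 pairs of Ddc, Slc6a3, Slc18a2 and Tph2. On the other 7 it ran from 0.06 for Slc6a3 with Tph2 to 0.73 for Slc18a2 with Tph2. Slc6a4 was at a low signal on all 7, where r was -0.77 with Ddc, -0.44 with Tph2, -0.39 with Slc18a2 and -0.32 with Slc6a3. On the 11 arrays these 4 pairs of Slc6a4 gave 0.38 to 0.68. Tph2 was likewise under the added constant on all 7, at 11.1 to 63.5.

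**Figure D3:**
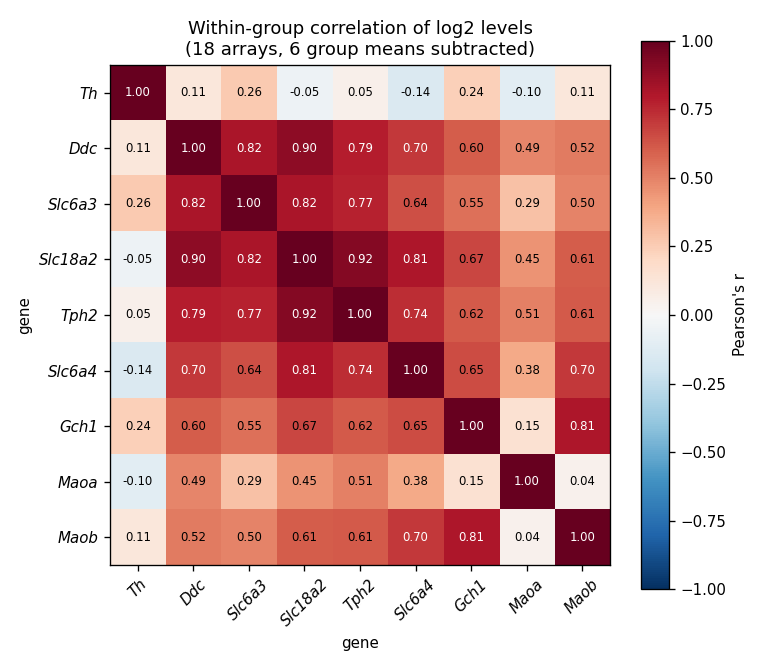
Pearson's r of log2(signal + 63.6) for each pair of the 9 genes over 18 arrays after subtracting the 6 group means (colour scale from -1 to 1). Ddc, Slc6a3, Slc18a2, Tph2 and Slc6a4 have values of 0.64 to 0.92 with each other, some pairs outside these 5 are as high (0.81 for Gch1 with Maob), and the row of Th runs from -0.14 to 0.26.

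Th followed the others little over all 18 arrays. Its 8 pairs gave r from 0.10 to 0.36 over 18 arrays, and the permutation p of r was 0.141 or more, before adjustment. By rho the highest was 0.47 with Maob (permutation p = 0.0499, adjusted p = 0.12). Without the 2 arrays furthest out in Th, r was 0.71 with Ddc and 0.65 with Slc18a2. On the 11 arrays with a Pcp2 signal of 500 or more, Th followed Slc6a3 with r = 0.86, Ddc with 0.78, Slc18a2 with 0.77 and Tph2 with 0.74. On the other 7 the same values were -0.30, 0.08, -0.20 and -0.18. Those 7 include ERalphaKO male replicate 3, and without it the values on the remaining 6 were -0.39, 0.79, 0.40 and 0.42, an alternative chosen after seeing the data.

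On ERalphaKO male replicate 3, Th and the other synthesis and transport genes were far apart. Th was the highest of 18 arrays there at 1360.4, against at most 755 elsewhere, while Ddc (252) and Slc18a2 (127) ranked 17 of 18 and Tph2 (18.9) ranked 16. Without this array, an alternative chosen after seeing the data, Th followed Ddc over the remaining 17 with r = 0.71 and rho = 0.62 (adjusted permutation p = 0.00761 for r and 0.0372 for rho). The values were r = 0.65 with Slc18a2 (adjusted permutation p = 0.0176 for r, 0.0614 for rho), 0.62 with Tph2 (0.0210, 0.0540) and 0.59 with Slc6a3 (0.0301, 0.160). The r of Th with these 4 genes was thus higher without this 1 array, but of the 4 only Ddc passed by rho. Outside the 4, Th passed by rho with Maob (rho = 0.69, adjusted permutation p = 0.0344), but not by r (0.53, 0.0504). With Slc6a3, rho was 0.31 over 18 arrays and 0.41 over 17. On the same array all 6 genes looked at as olfactory bulb markers were the highest of 18. Cdhr1, a mitral cell cadherin, read 2503 against at most 678 on the other 17 arrays, and Doc2g read 1779 against 461. Eomes read 1218 against 505, Sp8 525 against 182, Trh 277 against 177 and Tbx21 211 against 71.8.

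These 6 genes were picked after their values were seen, and their part in the level of Th was not tested. They are not all particular to the bulb, and Trh was also on the list of hypothalamic markers. Outside this array, Eomes was highest on ERalphaKO male replicate 2 (505, with Pcp2 at 6799). It was lowest on wild type female replicate 3 (103, with Pcp2 at 117). The summed signal of the 6 genes was 662 to 1663 in wild type, 933 to 6512 for ERalphaKO and 682 to 1767 for ERbetaKO arrays, and none was at 0. The 3 of them that passed the filter were Cdhr1, Doc2g and Eomes. As a description over 18 arrays, Th followed the mean log2 level of these 3 with r = 0.71 and rho = 0.54. It was r = 0.47 without the 2 arrays furthest out in that level. Ddc gave -0.37 and Slc18a2 -0.28 with the same level.

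**Figure D4:**
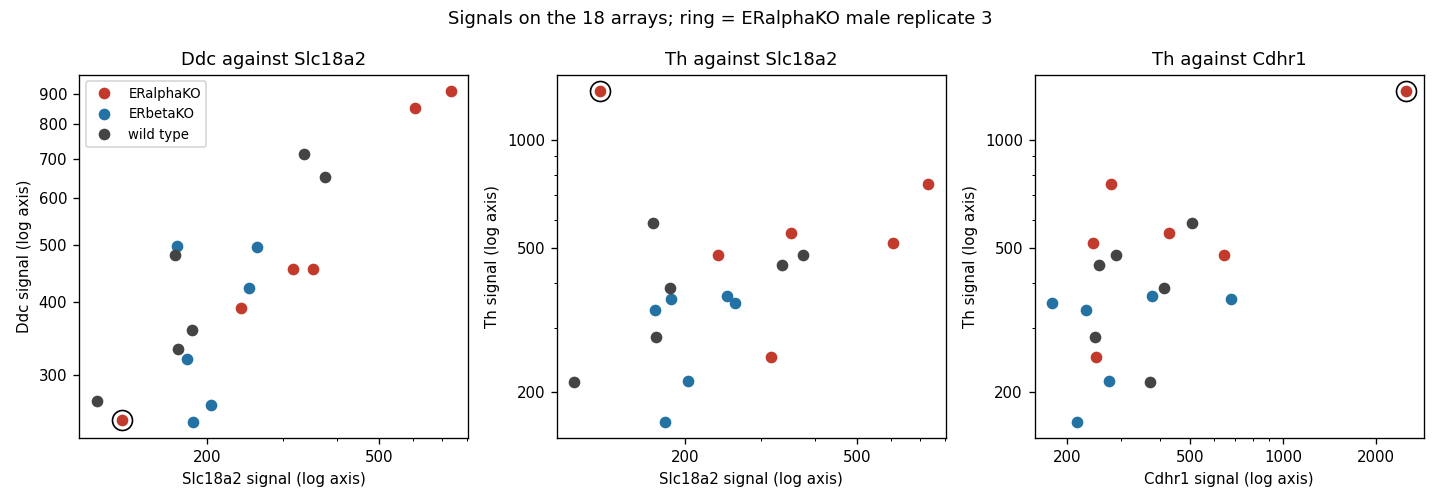
Signals on the 18 arrays (log axes, each point 1 array, coloured by labelled genotype, ring on ERalphaKO male replicate 3): Ddc against Slc18a2, Th against Slc18a2, and Th against Cdhr1, an olfactory bulb gene. Ddc and Slc18a2 rise together with the ringed array at the low end, whereas Th on that array is at 1360.4 beside a Cdhr1 signal of 2503.

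Markers of other tissue parts also moved with these genes. Over 63 relations of the 9 genes with 6 marker scores and the Actb ratio, 5 had an adjusted permutation p of r under 0.05 and 8 one of rho. Ddc followed the 5 oligodendrocyte markers on the array (r = 0.77, rho = 0.80, adjusted p = 0.00535, and r = 0.71 without the 2 arrays furthest out in the marker score) and ran against the 8 striatal markers (r = -0.66, rho = -0.69, adjusted p = 0.0357, and -0.70 without 2 arrays). Slc6a3 (r = -0.65, rho = -0.67, adjusted permutation p = 0.0612 for r and 0.0374 for rho) and Slc18a2 (r = -0.65, rho = -0.65, 0.0511 and 0.0404) gave like values with the striatal markers, as did Maoa by rho (r = -0.51, rho = -0.63, 0.122 and 0.0459). Striatal markers themselves differed with the Pcp2 signal. Ppp1r1b read 2777 to 4497 on the 7 arrays with Pcp2 under 500 and 964 to 3038 on the other 11. Drd1 read 1156 to 1978 and 204 to 1339 in the same order. The pooled striatal values therefore cannot be told apart from that split. Tph2 followed the oligodendrocyte markers (r = 0.67, rho = 0.68, adjusted permutation p = 0.0357), and so did Maoa (r = 0.71, rho = 0.67, adjusted permutation p = 0.0212, and 0.59 without 2 arrays). The summed oligodendrocyte signal was 31932 to 45916 in wild type, 29251 to 37714 for ERalphaKO and 27149 to 44841 for ERbetaKO arrays, and no such marker was at 0. Its part in the levels of Ddc, Tph2 and Maoa was not tested.

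Several of the genes also differed with the Pcp2 signal. Maoa read 895 to 1205 on the 11 arrays with a Pcp2 signal of 500 or more and 819 to 939 on the other 7. The cerebellar score falls into these 2 clusters, so no pooled correlation is given. That of Maoa with the score passed by r and by rho and is in the counts of the 63 relations. Within the clusters r of Maoa with the score was 0.59 (permutation p = 0.0539, n = 11) and 0.15 (exact permutation p = 0.782, n = 7), two-sided and unadjusted. Medians on the 11 and the 7 arrays were 495 and 271 for Ddc, 316 and 185 for Slc18a2, and 88.1 and 50.7 for Tph2. They were 388 and 368 for Th and 129 and 125 for Gch1, and all these ranges overlapped. The part of the cerebellum in these levels was not tested. Within the 6 groups, the Hox genes and Slc6a5 that mark hindbrain and spinal cord followed Slc18a2 (r = 0.81), Tph2 (0.82) and Ddc (0.78), while over all 18 arrays their r was 0.37, 0.59 and 0.53 with no adjusted permutation p under 0.05.

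By likeness of pattern within groups over the 18 arrays, the 3 genes nearest to each were taken from the filtered genes. They are the highest of 13071 or 13072 genes compared, so their r is high by selection. Whether it exceeds what chance gives in such a search was not tested. Th was most like Ndnf (r = 0.87), Adarb2 (0.86) and Txlnb (0.85), none of them among the 3 nearest of another of the 9 genes. Ndnf, like Th, was highest on ERalphaKO male replicate 3, at 1099.6 against at most 559 elsewhere, and without that array the 3 values were 0.70, 0.72 and 0.80. The likeness to Txlnb held only after the group means were subtracted (r = -0.03 over arrays as they stand). Ddc was most like Litaf (0.95), Ret (0.93), the receptor for GDNF family signals, and Gal3st1 (0.93), an enzyme of myelin sulfatide synthesis. Slc18a2 was most like Cers2 (0.96), a ceramide synthase, Prr5l (0.92) and Slco3a1 (0.92), and Slc6a3 most like Pnpla6 (0.90), Gal3st1 (0.89) and Trim59 (0.89). Tph2 was most like Ak3 (0.92), Slc18a2 (0.92) and Slc16a1 (0.91).

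Slc6a4 was most like Chst5 (0.90), Tmem229a (0.87) and Rabif (0.85), and Gch1 most like Aga (0.88), As3mt (0.87) and Acsm2 (0.87). Over arrays as they stand, r of Slc6a4 with its 3 was lower, at 0.18, 0.59 and 0.46. That of Gch1 was 0.34, 0.54 and 0.63. Slc6a4 was at a signal of 20 or less on 13 of 18 arrays, so its likeness rests on few arrays. Maoa was most like Acadvl (0.93), a mitochondrial fatty acid oxidation enzyme, Atp1b3 (0.93) and Abhd17b (0.92). Maob was most like Olig2 (0.89), a transcription factor of the oligodendrocyte lineage, Csrp2 (0.88) and As3mt (0.83).

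Other genes of the monoamine pathway were called at 0 of 10, 3 of 10 and 2 of 10 in the 3 comparisons, beside 6.70%, 7.50% and 15.4% of all filtered genes. Of 20 listed, 15 were on the array and 10 passed the filter, and their median differences were -0.10, 0.07 and -0.11 in the order of the 3 comparisons above. For ERalphaKO against wild type limma called 0 of the 10; the nearest was Spr, sepiapterin reductase, the last enzyme of tetrahydrobiopterin synthesis, at 406 ± 64.2 against 572 ± 44.3 (mean signal ± SD, n = 6 each), with all 6 arrays below every wild type array (-0.44 ± 0.13, adjusted p = 0.0505), and it passed in 8 of 31 alternatives (lowest adjusted p = 0.0129). For ERbetaKO, 1 rose and 2 fell. Hnmt, which methylates histamine, rose by 0.41 ± 0.09 (851 ± 112 against 626 ± 77.6, adjusted p = 0.0170), a call that ended with the Actb ratio added to the fit, where the difference was 0.37 (adjusted p = 0.295) and the calls over all genes went from 980 to 122. The call of Hnmt also ended under common-median scaling (0.28, adjusted p = 0.0631) and in the fit of the 11 arrays with Pcp2 at 500 or more (0.31, adjusted p = 0.210). Spr fell by 0.45 ± 0.13 to 414 ± 106 (adjusted p = 0.0468), again with all 6 arrays below wild type, and Aldh2, a mitochondrial aldehyde dehydrogenase, fell by 0.53 ± 0.15 from 2826 ± 257 to 1988 ± 546 (adjusted p = 0.0477).

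The calls for Spr and Aldh2 were close to the threshold. Leaving out 1 array ended the call of Spr in 15 of 18 cases and that of Aldh2 in 13 of 18, and with the Actb ratio added to the fit the difference of Spr was -0.01 (adjusted p = 0.991). Between the knockouts, 2 of the 10 were called, both lower in ERalphaKO: Slc6a2, the noradrenaline transporter (-0.38 ± 0.11, 237 ± 44.4 against 329 ± 52.0, adjusted p = 0.0271), and Slc29a4, a low-affinity monoamine transporter (-0.24 ± 0.08, adjusted p = 0.0417). Each call ended without 1 array in 6 and 10 of 18 cases, and neither passed when the arrays were scaled to a common median (adjusted p = 0.0616 and 0.244). Over all 31 alternatives the calls ended in 8 and 16, with a limma adjusted p of up to 0.123 and 0.244.

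Of 29 receptors, 21 were on the array and 17 passed the filter, with median differences of -0.11, 0.04 and -0.14. Limma called 0 of 17 against wild type in ERalphaKO and 0 of 17 in ERbetaKO, beside the 6.70% and 7.50% of all filtered genes, and the smallest adjusted p were those of Htr3a (0.161) and Htr1b (0.271) for ERalphaKO and of Hrh1 (0.0890) and Htr7 (0.118) for ERbetaKO. Between the knockouts Htr3a, the serotonin-gated channel, was lower in ERalphaKO (-0.37 ± 0.08, 499.6 ± 95.0 against 662 ± 104, adjusted p = 0.00832) and passed in all 31 alternatives. Htr2c, a Gq-coupled serotonin receptor, was higher (0.69 ± 0.20, 2390 ± 628 against 1485 ± 549.9, adjusted p = 0.0330), a call that ended in 7 of 18 fits without 1 array.

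Of 13 transcription factors of monoamine neurons, 11 were on the array and 4 passed the filter, with median differences of 0.04, 0.32 and 0.10. Nr4a2, which acts with Th in dopamine neurons and is also used in cortex, rose in ERalphaKO-labelled arrays by 0.97 ± 0.21 (1581 ± 237 against 833 ± 392, n = 6 each, adjusted p = 0.0142) and passed in all 31 alternatives, although 3 of the 6 arrays overlapped wild type. Lmx1a rose on ERbetaKO-labelled arrays by 0.75 ± 0.19 (274 ± 47.0 against 143 ± 61.7, adjusted p = 0.0284), and this call ended with the Actb ratio added to the fit (0.53, adjusted p = 0.484). It ended in 8 of 31 alternatives, 6 of them fits without 1 array. Between the knockouts Lmx1a (-0.61 ± 0.19, adjusted p = 0.0439) and Gata2 (-0.29 ± 0.08, adjusted p = 0.0210) were lower in ERalphaKO. Both calls ended under common-median scaling, at adjusted p of 0.0558 and 0.109. That of Lmx1a ended in 18 of 31 alternatives, 10 of them fits without 1 array, with a limma adjusted p of up to 0.314. That of Gata2 ended in 4 of 31, with one of up to 0.166. In the comparison of females with males, 0 genes of the 3 lists were called by limma.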

How the data were processed

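Whole brain RNA of 18 samples was measured on Affymetrix mouse arrays. The deposited values are linear signal intensities, 1 per probe set, made with MAS5 per the submitters' processing notes; each array's 2% trimmed mean was 500.0 in the file, and no detection calls were used. Of 45037 non-control probe sets, 34945 named 1 gene, 932 several and 9160 none. The probe set with the highest mean led for each gene. Values were taken as log2(signal + 63.6), the constant being the 25th percentile, and the log2 differences are those of limma 3.58.1 (R 4.3.3; lmFit, eBayes with an intensity trend, 6 group means, 12 residual degrees of freedom, Benjamini-Hochberg adjustment) over the 13072 genes whose mean was at or above the 40th percentile. Tph2, Slc6a4 and Gch1 were under it and read from the fit without a filter. Permutation tests used SciPy 1.17.1 or Python 3.11.15; promoters came from RefSeq. On simulated data with 200 changed genes among 13072, 74.6% of 1.5-fold and 95.5% of 2-fold changes of ERalphaKO against wild type were recovered, and 43.3% of 1.3-fold changes. Those shares are for filtered genes in general, whose median within-group SD was 0.18. They do not apply to Th, Ddc, Slc6a3 and Slc18a2, whose SD was 0.55 to 0.66. Nor do they apply to Tph2, Slc6a4 and Gch1, which were under the filter. Named genes were the 9 genes, the called genes of 3 pathway lists (up to 6 a list and comparison, otherwise the 2 with the smallest adjusted p) and the 3 most alike to each of the 9. The 9 genes, the lists and the tests were chosen with earlier results of these data known. Alternatives changed the filter, constant, scaling, probe sets, trend, groups in the fit, replicate block, covariates and arrays.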

Additional observations from a re-analysis of the deposited data

Results flagged for a closer look

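Within the 6 arrays of a genotype, a value was listed when its gap to the nearest other array took up more than 0.625 of the whole range. Of 27 such groups of the 9 genes 2 were listed. These were Slc6a4 on ERalphaKO male replicate 1, at 182 with the next array at 54.7 (0.741 of the range), and Gch1 on ERbetaKO female replicate 3, at 182 with the next at 133 (0.746). The chance rate of 1 in 20 for this cutoff assumes independent, normally distributed values. These were linear signals of genes that moved together, so that rate does not hold for them. The 6 olfactory bulb genes gave another 8 of 18; they were chosen after their values were seen, so no chance rate applies to them. On ERalphaKO male replicate 3 these were Cdhr1 (0.821), Doc2g (0.829), Tbx21 (0.772), Eomes (0.717) and Sp8 (0.851). On ERbetaKO female replicate 3, Doc2g stood apart at 461 with the next at 202 (0.903) and Tbx21 at 62.9 with the next at 21.7 (0.768); Th was 362 there, inside the range of its group. On wild type male replicate 3, Trh was at 177 with the next at 43.3 (0.816), and Th was 586, the highest of the wild type arrays.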

How the results depend on the processing

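Under 31 alternatives, 0 of the 9 genes were called by limma for either knockout against wild type, and 0 for genotype by sex; 0 were called for sex under 30. Between the knockouts 1 of 9 was called, always Th, under quantile normalization (adjusted p = 0.0428), scaling to a common median (0.0267), the cerebellar score as a covariate (0.0298) and the replicate block (0.0180). Leaving out 1 array gave counts of 0 to 1 over 18 fits; the fit without ERalphaKO male replicate 3 called Slc18a2 in place of Th. Replicate numbers did not pair the samples (18 pairs, r from -0.40 to 0.43, 6 over 0.1), and besides calling Th the replicate block ended the call of Spr in ERbetaKO (adjusted p = 0.0575) and changed no other call. Differences turned sign without passing in either fit. With the cerebellar score, ERbetaKO minus wild type became 0.0701 for Slc6a3 and 0.15 for Slc18a2. A constant of 1 gave 0.00193 for Slc18a2 in that comparison and 0.0663 for Slc6a4 in ERalphaKO minus wild type. Slc6a4 in the latter was 0.00254 with the constant at the median, 0.0187 with quantile normalization and 0.00406 with a common median, and Tph2 was 0.00620 on arrays with a Pcp2 signal of 500 or more. Htr7 in ERbetaKO became -0.0797 with the Actb ratio. Without 1 array, ERalphaKO minus wild type ranged from -0.0269 to 0.358 for Ddc, -0.26 to 0.18 for Tph2, -0.23 to 0.19 for Slc6a4 and -0.0626 to 0.0222 for Maoa. ERbetaKO minus wild type ranged from -0.14 to 0.12 for Slc6a3, -0.17 to 0.16 for Slc18a2 and -0.125 to 0.0168 for Maob. Gch1 between the knockouts ranged from -0.0708 to 0.0787. The causes were not tested. Slc6a4 and Tph2 were dim, and no detection calls were used, so their levels set no bound.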
